A study of Homo sapiens with 10 samples.

Results

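NOG and 6 protein-coding genes next to it on chromosome 17q22 (ANKFN1, C17orf67, DGKE, TRIM25, COIL and SCPEP1) were followed in PC3 cells treated with an LXR agonist, to ask whether the higher level of NOG under the agonist was shared along the locus. The 7 genes were found by symbol among the 62656 genes of the table. NOG was chosen by its RPKM values in these same libraries, which were higher with the agonist, so its values are given as a description with no test, while the 6 neighbours entered for their position. The answer differed along the locus. C17orf67 lies on the − strand, with its near end 196 kb beyond NOG and its coding start 240 kb from the start of NOG. It rose 1.52-fold (95% interval from 1.36 to 1.69, n = 5 libraries per condition). DGKE, which starts next to C17orf67 on the other strand, was 1.43 times as high and did not pass the test over all genes. TRIM25, COIL and SCPEP1, which come next, differed by at most 1.09-fold, within the spread between libraries.

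PC3 is an epithelial line from a human prostate cancer, originally a bone metastasis. All cells were first starved overnight and then received, in RPMI-1640 medium with L-glutamine, either the vehicle DMSO or 1 µM of GW3965, a synthetic ligand of both liver X receptors (LXRs), for 24 h, and 5 libraries of total RNA depleted of ribosomal RNA were made for each condition. The molecule label says polyA RNA, whereas the library kit named depletes ribosomal RNA from total RNA. Both groups were the same unmodified line. Nothing states that libraries came from separate cultures, so p-values measure the spread between these libraries, which may be technical.

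Noggin, the product of NOG, is a secreted protein that binds bone morphogenetic proteins (BMPs) outside the cell and keeps them from their receptors. It is known from embryonic patterning and from the skeleton, and in prostate cancer it has been studied in connection with bone metastases. LXRs are nuclear receptors for oxidised cholesterol derivatives that act with RXR on DNA, classically on pairs of the half-site AGGTCA spaced by 4 bases, and they may act from sites far from the gene. Neighbouring genes can share regulatory sequence or sit in the same chromatin domain, and genes that start back to back can share a promoter. None of these arrangements was measured here.

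In GENCODE 29 (GRCh38), NOG is a single-exon gene on the + strand of chromosome 17, from 56593699 to 56595590. Upstream lies ANKFN1, on the + strand from 55882301 to 56511659, which ends 82.04 kb before NOG. Downstream lie C17orf67 on the − strand from 56791913 to 56838773, DGKE on the + strand from 56834099 to 56869567, TRIM25 on the − strand from 56836387 to 56914080, COIL on the − strand from 56938187 to 56961054 and SCPEP1 on the + strand from 56978105 to 57006768. The authors' table gives no coordinates, so all positions are those of the annotation. The submitters' processing notes name the human build hg38, although the methods name the mouse genome for the alignment.

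The coding transcripts of C17orf67 and DGKE start back to back, with 203 bases between their start sites at 56833896 and 56834099 in GENCODE 29. RefSeq places them 231 bases apart. The stretch between these starts is shown because it lies in front of the coding transcripts of the 2 neighbours with the largest differences. It is not intergenic in GENCODE 29, where a noncoding transcript of C17orf67 starts further upstream, at 56838773, and spans it. It covers chr17:56833921-56834098 of GRCh38.p14, with sequence from RefSeq, and is written 5′ to 3′ on the + strand, the strand of DGKE. It runs from after the RefSeq start of C17orf67 to before the GENCODE 29 start of DGKE. The stretch is therefore shorter than the gap in either annotation. Capitals mark matches to the GC box GGGCGG on either strand.
C17orf67-DGKE stretch between coding starts: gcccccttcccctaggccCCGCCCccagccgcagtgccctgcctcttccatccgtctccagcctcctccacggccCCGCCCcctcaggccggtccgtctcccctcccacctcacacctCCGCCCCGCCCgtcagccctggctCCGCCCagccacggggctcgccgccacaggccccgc

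These 178 bases hold 5 matches to GGGCGG, 2 of which share a base, and 78.1% of the letters are G or C, against a median of 57.9% over 35116 promoter windows of the same length and position. At least 1 match to GGGCGG stood in 33.3% of those windows. The half-site AGGTCA was not among these letters and stood in 8.6% of all windows, and the full LXR repeat of 2 such half-sites in 1 orientation with 4 bases between them was not either and stood in 0.0114%. Both strands were searched, and every full repeat also counts as a half-site. The GC box is a description of the letters, not a bound site. Of the 7 genes, 5 had an entry in the promoter table, and NOG and C17orf67 had none.

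Levels are in RPKM, which divides a gene's reads by its length and by a factor for the library. The authors' values were whole multiples of 1 read, so the reads behind them could be recovered, with totals from 30428901 to 41635913 per library. ABCA1 and ABCG1, cholesterol exporters that LXRs are known to induce, were apart as labelled, with the 5 GW3965 libraries at 14.1 to 19.5 and 5.97 to 8.13 RPKM, against at most 5.75 and 2.16 RPKM with DMSO. The epithelial keratins KRT8 and KRT18 stood at 29.8 to 58.5 RPKM over all libraries, while E-cadherin (CDH1) reached at most 0.518 RPKM. KLK3 had no read, and the leukocyte and fibroblast markers PTPRC, CD3E, DCN and LUM reached at most 0.122 RPKM. Of the endothelial markers, VWF reached at most 0.017 RPKM and PECAM1 stood at 0.409 to 0.76 RPKM in both conditions. On the first principal component of the reads, DMSO library 1 and GW3965 libraries 1 and 2 stood apart with scores from -19.7 to -17.7. The other 7 were spread from -3.91 to 21.9, with DMSO library 4 highest and GW3965 library 4 next at 11.8. The results were also computed without the 3 at the low end.

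NOG stood at 10.4, 11.1, 12.4, 10.1 and 7.77 RPKM in DMSO libraries 1 to 5 and at 21.9, 22.2, 21.0, 19.7 and 25.5 RPKM in GW3965 libraries 1 to 5. The groups did not overlap: the lowest GW3965 library was number 4 and the highest DMSO library number 3. These values rest on 482 to 897 reads per library with DMSO and on 1332 to 1695 with GW3965. The mean level was 10.4 ± 1.69 RPKM with DMSO and 22.04 ± 2.16 RPKM with GW3965 (SD, n = 5). On the log2(RPKM + 0.1) scale this is a log2 fold change of 1.09 ± 0.11 (SE). In RNA of whole cultures, a higher level in each cell and more cells with the RNA cannot be told apart. By this difference, NOG ranked 93rd of the 20402 genes that averaged 0.5 RPKM or more. The highest and the lowest library of the whole set carried the same replicate number, 5, and leaving out any 1 library kept the log2 fold change between 1.00 and 1.16.

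**Figure D1:**
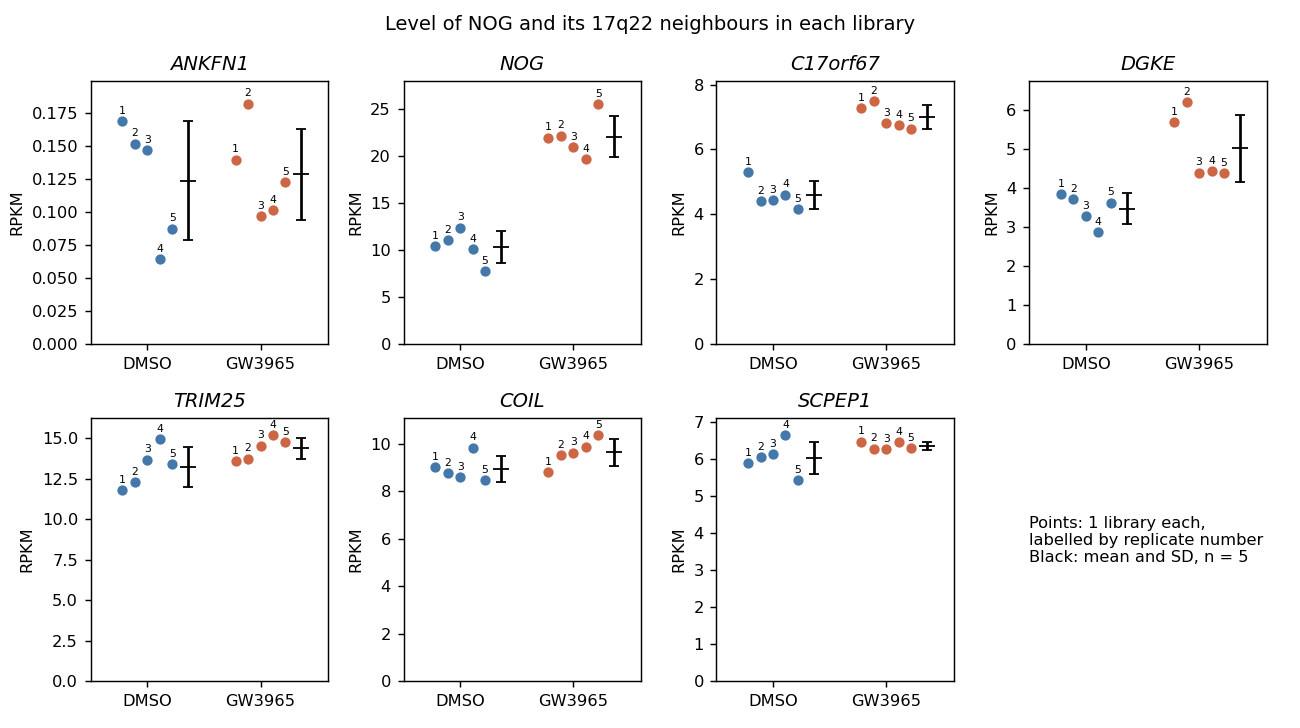
RPKM of the 7 genes, in their order along the chromosome, with 1 point per library labelled by its replicate number and with the mean and SD (n = 5) in black. The y axes start at 0 and differ between genes. The 2 groups are apart for NOG, C17orf67 and DGKE and overlap for the other 4.

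C17orf67, a protein-coding gene whose function is little known, stood at 5.30, 4.42, 4.45, 4.61 and 4.16 RPKM in DMSO libraries 1 to 5 and at 7.29, 7.48, 6.80, 6.74 and 6.64 RPKM in GW3965 libraries 1 to 5. The groups did not overlap, with a gap of more than 1 RPKM between DMSO library 1 and GW3965 library 5. The mean rose from 4.59 ± 0.428 to 6.99 ± 0.369 RPKM (SD, n = 5), on 328 to 456 and 524 to 728 reads per library. The log2 fold change of 0.60 ± 0.07 (SE) passed the threshold (limma adjusted p = 0.00482 over all tested genes). The exact permutation test gave p = 0.00794, its lowest possible value at 5 against 5. It ranked 16th of 20402 genes by p and 382nd by the size of the change. Among the 5 neighbours that were tested it was the 1 past the threshold, while 0.147% of all tested genes rose by that rule. The call was kept without the 3 libraries that stood apart (log2 fold change 0.60, limma adjusted p = 0.0221). It was lost in 1 alternative, in which the libraries were scaled to equal sums of RPKM (log2 fold change 0.74, limma adjusted p = 0.198, over all alternatives from 0.00148 to 0.198).

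DGKE encodes diacylglycerol kinase epsilon, which turns diacylglycerol into phosphatidic acid in the turnover of phosphoinositides. It stood at 3.85, 3.72, 3.28, 2.87 and 3.63 RPKM in DMSO libraries 1 to 5 and at 5.69, 6.19, 4.397, 4.44 and 4.38 RPKM in GW3965 libraries 1 to 5. The groups did not overlap, but the GW3965 libraries themselves fell apart, with numbers 1 and 2 high and the other 3 within 0.1 RPKM of each other. The mean was 3.47 ± 0.397 RPKM with DMSO and 5.02 ± 0.862 RPKM with GW3965 (SD, n = 5), on 1085 to 1722 and 1550 to 2705 reads. The log2 fold change was 0.51 with a 95% interval from 0.25 to 0.77. It did not pass the threshold over all genes (limma adjusted p = 0.206, unadjusted p = 0.00125, exact permutation test p = 0.00794). Of the 5 neighbours tested, C17orf67 and DGKE had no overlap between the groups with GW3965 higher, which held for 1.35% of all tested genes.
GW3965 libraries 1 and 2 and DMSO library 1, the highest DGKE libraries of their conditions, are the 3 that stood apart at the low end of the first principal component. DMSO library 4, the lowest for DGKE, had the highest score on it. Without the 3 at the low end the log2 fold change of DGKE was 0.38 (limma adjusted p = 0.27), and the 3 remaining GW3965 libraries still lay above all 5 DMSO libraries. When the fit included the principal component, an alternative added after the data were examined, DGKE passed the threshold with a log2 fold change of 0.47 (limma adjusted p = 0.00459, over all alternatives from 0.00459 to 0.66).

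TRIM25 encodes an E3 ubiquitin ligase known for its part in RIG-I signalling and in the response to oestrogen. It stood at 11.8, 12.3, 13.7, 15.0 and 13.4 RPKM in DMSO libraries 1 to 5 and at 13.6, 13.8, 14.6, 15.2 and 14.8 RPKM in GW3965 libraries 1 to 5. The groups overlapped, with DMSO library 4 above 4 of the GW3965 libraries. With 5071 to 7078 reads per library it was the most deeply counted of the 7 genes, and the difference of 0.12 on the log2 scale had a 95% interval from -0.03 to 0.28 (limma adjusted p = 0.804, exact permutation test p = 0.119).

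COIL encodes coilin, the scaffold of Cajal bodies, where small nuclear RNPs mature. Its values ran from 8.47 to 9.85 RPKM with DMSO (median 8.77) and from 8.81 to 10.4 RPKM with GW3965 (median 9.64). Again DMSO library 4 was the highest of its group. The log2 fold change was 0.11, with a 95% interval from -0.03 to 0.24 (limma adjusted p = 0.804, exact permutation test p = 0.0873).
SCPEP1 encodes a serine carboxypeptidase. Its values ran from 5.42 to 6.64 RPKM with DMSO and from 6.26 to 6.46 RPKM with GW3965, so that all GW3965 libraries lay inside the range of the DMSO libraries. The log2 fold change was 0.08, with a 95% interval from -0.05 to 0.21 (limma adjusted p = 0.872, exact permutation test p = 0.143). For TRIM25, COIL and SCPEP1 the upper ends of the intervals, 1.21-fold, 1.18-fold and 1.15-fold, lie under the lower end for C17orf67, 1.36-fold. The lower end for DGKE, 1.19-fold, lies under the first of these.

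ANKFN1, which encodes a protein with ankyrin repeats and a fibronectin type III domain, is the neighbour on the other side. Its level was between 0.0644 and 0.169 RPKM with DMSO and between 0.0972 and 0.182 RPKM with GW3965, on 32 to 95 reads per library. It was therefore below the filter of 0.5 RPKM and not part of the fit across genes. The 287 reads over the DMSO libraries and 304 over the GW3965 libraries gave means of 0.124 ± 0.0452 and 0.129 ± 0.0344 RPKM (SD, n = 5), and the groups overlapped (exact permutation test, p = 0.794). The side of NOG towards ANKFN1 is thus described by a gene that was hardly expressed.

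**Figure D2:**
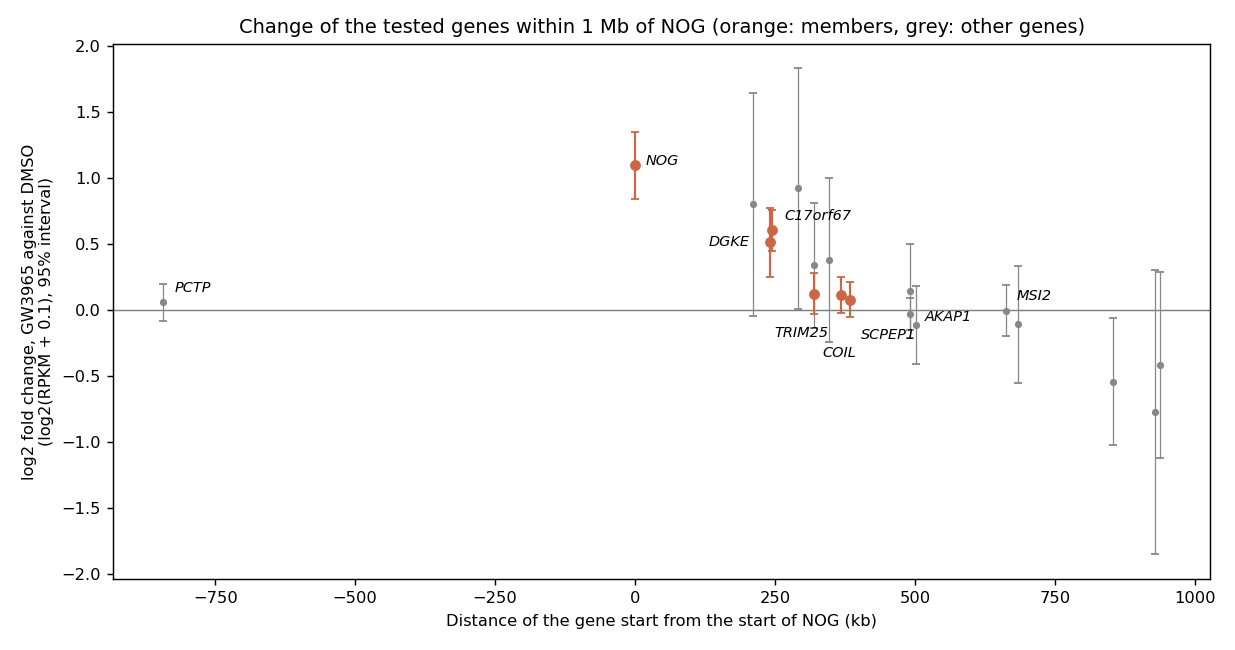
log2 fold change with its 95% interval for NOG and the 18 other tested genes within 1 Mb, against the distance of each gene's start from the start of NOG in kb. NOG stands at 1.09, C17orf67 and DGKE at 0.60 and 0.51, and the next 3 members at 0.08 to 0.12. NOG was chosen for its rise in these libraries, so its interval describes the spread and is not a test. Wide intervals belong to genes with few reads.

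The wider locus was taken from the annotation. It places 31 other genes with a start within 1 Mb of NOG, all of them in the table, and 18 were tested. Of these, 1 rose (C17orf67) and 0 fell, and 0.157% of all tested genes passed the threshold in either direction. Without the members, 13 tested genes remained with a median log2 fold change of -0.01, against 0.00 for all tested genes, and 0 of them passed. At an unadjusted p under 0.05 there were 2 of these 13, 1 higher and 1 lower, against 6.99% of all tested genes. With voom on the recovered reads, C17orf67 was likewise the 1 gene of the wider locus past the threshold.
The other expressed coding genes of the wider locus had intervals that include 0. PCTP, a phosphatidylcholine transfer protein that starts at -842.7 kb from NOG, stood at 2.30 to 2.48 RPKM with DMSO and at 2.32 to 2.76 RPKM with GW3965, and its 95% interval on the log2 scale ran from -0.09 to 0.20. AKAP1, which anchors protein kinase A at mitochondria and starts 491 kb downstream, stood at 19.2 to 21.9 RPKM with DMSO and at 18.6 to 20.8 RPKM with GW3965, with an interval from -0.15 to 0.09. MSI2, an RNA-binding protein gene 662 kb downstream, had an interval from -0.20 to 0.19. TMEM100, also coding, had no read. These 4 genes were chosen after their values were seen.
The ends of the wider list were set by genes with few reads. The highest was AC015912.2, a pseudogene in an intron of TRIM25, with 1 to 9 reads per library and a log2 fold change of 0.92 (95% interval from 0.01 to 1.83, limma adjusted p = 0.711). The lowest was AC007431.2, an antisense RNA 930 kb downstream with 2 to 23 reads and a log2 fold change of -0.78 (interval from -1.85 to 0.30, limma adjusted p = 0.833). AC106858.1, an RNA annotated inside an intron of C17orf67 on the same strand, was also chosen after its values were seen and had 3 to 19 reads per library with DMSO and 13 to 28 with GW3965. Its log2 fold change was 0.80 with an interval from -0.05 to 1.64, which holds both the change of C17orf67 and no change.

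Ratios between genes within a library do not depend on how libraries were scaled. C17orf67 per SCPEP1 was 0.765 ± 0.0806 with DMSO and 1.10 ± 0.0594 with GW3965 (SD, n = 5). C17orf67 was thus the lower of the 2 in every DMSO library and the higher in every GW3965 library. C17orf67 per COIL went from 0.513 ± 0.0444 to 0.728 ± 0.0768 without overlap, and C17orf67 per TRIM25 went from 0.35 ± 0.0583 to 0.488 ± 0.048, with DMSO library 1 inside the GW3965 range. The 7 pairs were chosen after the values were seen. Most set C17orf67 or DGKE, which differed more, over TRIM25, COIL or SCPEP1, which differed less. A change of these ratios was built in by that choice, so no test is attached.
For DGKE the ratio to SCPEP1 went from 0.582 ± 0.0987 to 0.792 ± 0.136 (SD, n = 5) without overlap. The ratio to COIL overlapped, with 0.291 to 0.429 under DMSO and 0.422 to 0.651 under GW3965. DGKE per TRIM25 overlapped as well, with 0.191 to 0.325 under DMSO and 0.292 to 0.45 under GW3965. C17orf67 and DGKE did not part from each other beyond the spread: C17orf67 per DGKE was 1.33 ± 0.183 with DMSO and 1.41 ± 0.158 with GW3965. The same ratio with NOG, given without a test, was 2.26 ± 0.38 and 3.16 ± 0.382 for NOG per C17orf67, so the fold difference of NOG was 1.40 times that of C17orf67.

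**Figure D3:**
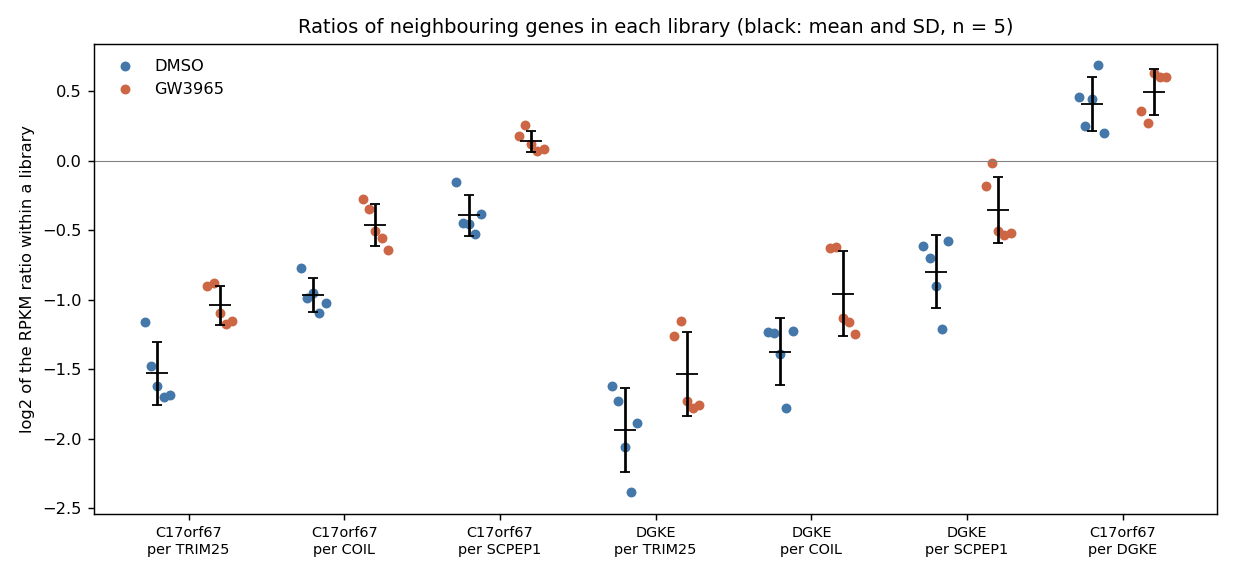
log2 of the RPKM ratio of 2 neighbours within each library, 1 point per library, with the mean and SD (n = 5) in black. The ratios of C17orf67 to SCPEP1 and to COIL and of DGKE to SCPEP1 lie apart between the conditions, while C17orf67 per DGKE stays in the same range.

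Because RPKM is a level per length, the genes can be ordered within a condition. With DMSO the order of the mean levels was TRIM25 (13.2 RPKM), NOG (10.4), COIL (8.95), SCPEP1 (6.02), C17orf67 (4.59), DGKE (3.47) and ANKFN1 (0.124). The range of NOG over the libraries reached into those of TRIM25 and COIL, so these places are not distinct, whereas from COIL downwards no 2 ranges met. With GW3965 the order was NOG (22.04 RPKM), TRIM25 (14.4), COIL (9.65), C17orf67 (6.99), SCPEP1 (6.34), DGKE (5.02) and ANKFN1 (0.129). No 2 neighbours in that order had overlapping ranges, and the smallest distance was between DGKE library 2 at 6.19 RPKM and the lowest SCPEP1 library at 6.26 RPKM. In absolute terms NOG gained 11.7 RPKM, C17orf67 2.40 RPKM and DGKE 1.55 RPKM, against 1.14 RPKM for TRIM25, 0.705 RPKM for COIL and 0.325 RPKM for SCPEP1.

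Annotated overlaps limit how far reads can be assigned. In GENCODE 29, 132 exon bases of C17orf67 (5.48% of its exons) are also exon bases of TRIM25 on the same strand. DGKE shares 80 exon bases (0.732%) with TRIM25 on the opposite strand, and 0 exon bases with C17orf67, whose body it overlaps by 4675 bases. The kit keeps the strand, and whether the counting used it is not given in the sources used here. The lengths implied by the RPKM values were 1913 bases for NOG, 2434 for C17orf67, 10925 for DGKE and 12417 for TRIM25. The exon lengths of GENCODE 29 are 1892, 2410, 10933 and 9501 bases, so only TRIM25 differs widely. The authors' annotation was therefore another one, and its overlaps may be larger. How reads in the bases shared with TRIM25 were assigned was not tested.

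Among all tested genes, those with the pattern most like NOG over the 10 libraries, by Pearson's r of log2(RPKM + 0.1), were KLF4 (0.99), SLC25A20 (0.99), ETFA (0.98), INSIG1 (0.97) and NTN4 (0.96). The 2 conditions form separate clusters of points, so these r mostly hold the shared difference between conditions. Within conditions, after the condition means were taken away, r was 0.95 for KLF4, 0.88 for SLC25A20, 0.83 for ETFA, 0.78 for INSIG1 and 0.52 for NTN4. The points share libraries and their scaling, and no test is attached. In all, 28 genes reached an r of 0.9 with NOG within conditions. None of the 5 most like NOG lies on chromosome 17, and the share of all tested genes on that chromosome was not counted.
KLF4, a transcription factor of epithelia and stem cells, stood at 2.79, 2.82, 3.01, 2.76 and 2.37 RPKM with DMSO and at 5.99, 5.90, 5.50, 5.16 and 6.42 RPKM with GW3965. As for NOG, the lowest DMSO library was number 5 and the highest number 3, and the highest GW3965 library was number 5 and the lowest number 4. KLF4 was picked as the gene with the highest r of all tested genes, so this match and the lower r of the neighbours reflect that choice. C17orf67 ranked 25th with an r of 0.93, but within conditions its r with NOG was 0.23, and DGKE ranked 394th with 0.76 and -0.08. Within conditions C17orf67 and DGKE had an r of 0.51 with each other. DGKE had -0.82 with TRIM25, and TRIM25 and COIL had 0.54.

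**Figure D4:**
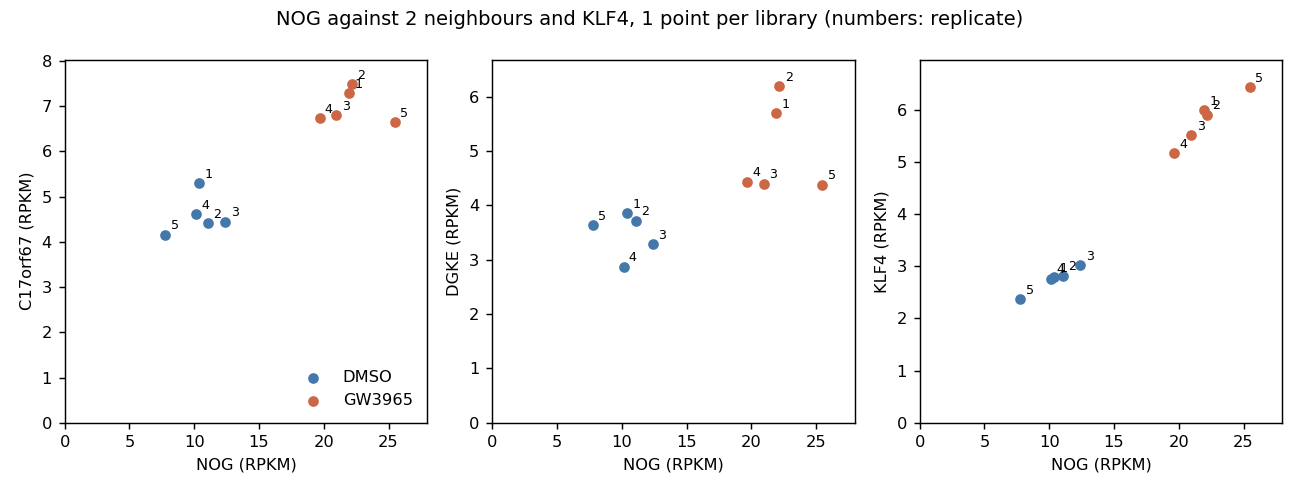
RPKM of C17orf67, DGKE and KLF4 against RPKM of NOG, 1 point per library labelled by its replicate number. Within each condition KLF4, picked for its r with NOG, follows NOG from library to library. DGKE is highest in GW3965 libraries 1 and 2 and NOG in GW3965 library 5.

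The other genes of the pathway on which noggin acts gave no call. Of 47 listed BMP genes, 26 were tested, with a median log2 fold change of 0.02 against 0.00 for all tested genes, and 14 were higher, against 10420 of the 20402. By limma 0 passed the threshold, against 0.157% of all tested genes, and voom also called 0. At an unadjusted p under 0.05 there were 3 of the 26, against 6.99% of all tested genes. Among the ligands, which noggin binds, BMP4 stood at 0.548 to 0.881 RPKM and BMP8B at 1.16 to 1.73 RPKM over all libraries, and the other 8 were below the filter, with means of at most 0.391 RPKM. The receptors were present, with 6 of 7 tested and log2 fold changes from -0.16 to 0.08. The 3 SMADs tested, which carry the signal to the nucleus, had log2 fold changes from 0.05 to 0.13.
The transcriptional targets marked both ends of the list. ID2 differed by 0.32 on the log2 scale, with a 95% interval from -0.00 to 0.64 (limma adjusted p = 0.715). ID3 averaged 0.804 ± 0.169 RPKM with DMSO and 0.507 ± 0.168 RPKM with GW3965 (SD, n = 5), on 15 to 63 reads per library. Its log2 fold change of -0.60 had an interval from -1.10 to -0.10 (limma adjusted p = 0.58). ID1, which is more abundant at 9.02 to 16.9 RPKM, had an interval from -0.35 to 0.35. ID1 and the next 2 genes were named after their values were seen. SMURF2, a ubiquitin ligase for SMADs, and FST, the secreted antagonist follistatin, were the other 2 with an unadjusted p under 0.05. FST stood at 39.6 to 49.6 RPKM with DMSO and at 53.3 to 61.2 RPKM with GW3965, without overlap, but did not pass over all genes (log2 fold change 0.30, limma adjusted p = 0.283). Of the 15 secreted antagonists listed, 6 were tested. FST and FSTL1 stood at 39.6 RPKM or more in every library, above the highest NOG library at 25.5 RPKM, and CHRD and GREM1 reached at most 0.0398 RPKM. BMPER, a secreted BMP-binding protein below the filter, had 3, 1, 1, 1 and 1 reads in DMSO libraries 1 to 5 and 9, 10, 4, 10 and 16 reads in GW3965 libraries 1 to 5. These groups did not overlap, at no more than 0.0618 RPKM. No test is attached, and the share of genes below the filter without overlap was not counted. FSTL1, CHRD, GREM1 and BMPER were chosen after their values were seen.

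**Figure D5:**
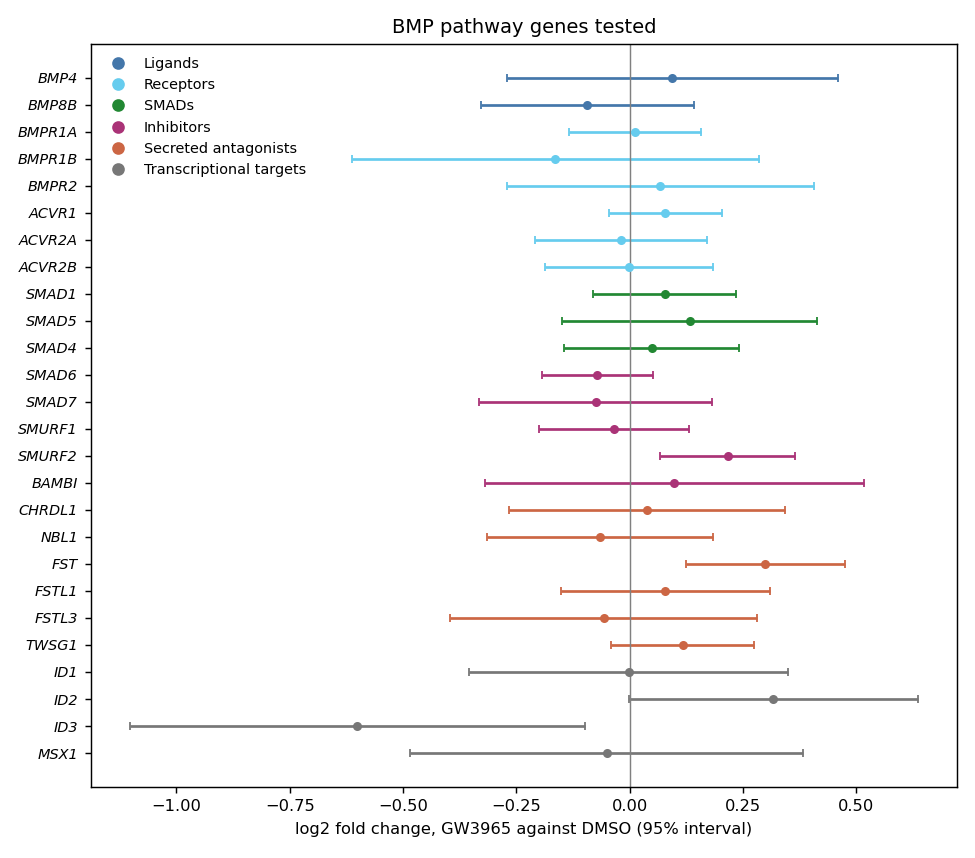
log2 fold change with its 95% interval for the 26 tested genes of the BMP list, coloured by role. The intervals of FST and SMURF2 lie above 0 and that of ID3 lies below 0 before adjustment over all genes, and the others cross 0.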

How the data were processed

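RNA of 10 PC3 libraries, 5 per condition, was analysed. The libraries were assigned by the sample titles. The authors aligned single reads with HISAT2 and deposited RPKM values per gene. The submitters' notes name HISAT2 2.1.0 and HTSeq 0.11.2, and the annotation release is not given in the sources used here. Whole reads were recovered from the ratios among each gene's values (100% of the values above 0 within 0.0001 reads, 30428901 to 41635913 reads per library). The library factor was the median-of-ratios size factor. Reads carry no molecular identifiers.

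Conditions were compared with limma 3.58.1 (R 4.3.3, lmFit and eBayes with a trend) on log2(RPKM + 0.1). The 20402 genes averaging 0.5 RPKM or more were fitted, and two-sided p-values adjusted by Benjamini-Hochberg were called below 0.05. The log2 scale with this pseudocount understates changes of low genes. Single genes were compared with two-sided exact permutation tests, and ratios were described without a test. The script was tested on simulated data.

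Members, lists and tests were chosen with earlier results of these data known. Named were the 7 members, genes past the threshold or at either end of the 1 Mb and BMP lists, ABCA1 and ABCG1, and the 5 genes most like NOG, and others are marked. Alternatives were other pseudocounts, filters and scalings, a replicate block, quantile normalization, no trend, library weights, voom on reads and the loss of each library. The principal component as a covariate (genes with at least 100 reads, log2 of scaled reads + 8) and the loss of 3 libraries together were added after the data were examined.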

Additional observations from a re-analysis of the deposited data

Results flagged for a closer look

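Of 38 groups checked, each of 5 libraries, 2 held a library well outside the rest on the log2(RPKM + 0.1) scale, and chance alone flags about 1 in 20 groups, here 1.9. Neither gene is one of the 7 members. For FST the gap of GW3965 library 5 to its neighbour was 0.772 of the range on that scale, with 61.2 RPKM against 53.3 to 55.0 RPKM. For AC015912.2 the gap was 0.842 of the range on the same scale, again for GW3965 library 5, with 0.682 RPKM against 1.14 to 1.25 RPKM, on at most 9 reads per library.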

How the results depend on the processing

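Over 23 alternatives the log2 fold changes of NOG (1.00 to 1.23), C17orf67 (0.52 to 0.74), DGKE (0.38 to 0.65), TRIM25, COIL and SCPEP1 kept their sign. NOG was chosen for its rise. The groups of NOG, C17orf67 and DGKE did not overlap, so the loss of libraries could not change the sign of these genes. Without each library in turn, the value of C17orf67 was 0.57 to 0.65 with a limma adjusted p from 0.00148 to 0.026, and that of DGKE 0.43 to 0.56. Scaling to equal sums of RPKM moved the median of all tested genes to 0.14 and left 0 neighbours and 0 genes within 1 Mb past the threshold. There C17orf67 stood at 0.74, which is 0.60 above the median. The principal component as a covariate gave 2 neighbours and 2 genes within 1 Mb, C17orf67 and DGKE (0.47). No setting called a BMP gene. The count over all genes, 32, was 17 to 38 without each library (for GW3965, 17 when library 2 or 4 was left out and 19 for library 3, and 18 for library 3 of DMSO), 18 without the 3 libraries that stood apart, 21 without a filter, 20 without the trend, 56 with library weights, 59 with voom and 146 with the component. The cause was not tested. Over all tested genes, the deviations of same-numbered libraries had correlations from -0.138 to 0.16. Of the 5 numbers, 1 correlated best with its own. On the first principal component, libraries numbered 1 stood at -17.8 (DMSO) and -19.7 (GW3965), and those numbered 4 at 21.9 and 11.8. Those numbered 2 stood at 1.48 and -17.7. Whether some numbers mark paired libraries is thus not settled. With the replicate block the count was 16 and C17orf67 kept its call (limma adjusted p = 0.0352). Few reads limit ANKFN1 and the noncoding genes of the locus.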
